A study of Homo sapiens with 14 samples.

Results

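The Jumonji C (JmjC) histone demethylases are enzymes that remove methyl groups from lysines of histone H3. The genes described here are the 10 members KDM2B, KDM3A, KDM4A, KDM4B, KDM4C, KDM5A, KDM5B, KDM5C, KDM6A and KDM6B, taken by name from 19923 genes in the count tables. All 10 passed the filter on low counts in both batches. RNA was sequenced from 14 libraries of SK-N-BE2, an established MYCN-amplified neuroblastoma cell line, in 7 groups of 2 libraries. In batch 1, cells of genotype WT received water (H2O), 10 µM CoCl2 or 50 µM CoCl2. In batch 2, untreated cells were labelled WT or TET2 KO, the latter numbered 1, 2 and 3 (TET2KO 1 to 3 here). The labels give neither the exposure time to CoCl2 nor how the knockouts were made, and do not say whether a knockout number is 1 clone or whether replicates are separate cultures. The p-values therefore measure the spread between these libraries, which may be technical.

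JmjC demethylases oxidise the methyl group with iron, 2-oxoglutarate and molecular oxygen. The hydroxylases that mark hypoxia-inducible factors (HIF) for destruction and the TET enzymes, which oxidise methylcytosine in DNA, use the same cofactors. Cobalt chloride is commonly used to stabilise HIF, and KDM3A, KDM4B and KDM4C are known as genes that HIF can induce. The members act on different lysines. KDM3A removes the lower methyl states of H3K9, and the KDM4 enzymes act on trimethylated H3K9 and H3K36. The KDM5 enzymes act on H3K4, KDM6A and KDM6B on H3K27, and KDM2B on H3K36. KDM2B also recruits a variant Polycomb complex, PRC1.1, to unmethylated CpG islands. The counts measure mRNA, and neither enzyme activity nor histone methylation was analysed here.

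HIF binds a short core, ACGTG or GCGTG, and all 10 members were searched for it. The search covered both strands of the 250 bases before each RefSeq gene start (GRCh38.p14), where the 10 members have 15 listed starts. At least 1 core was found before 12 of the 15 starts and in 9 of the 10 members. Over 35116 such windows of all genes the share with a core was 43.2%, with ACGTG in 18.5% and GCGTG in 32.2%. No share per gene was computed to set beside the 9 of 10 members. The 2 KDM3A windows overlap and hold the same core. G and C made up 50.4% to 83.6% of the members' windows, and their share over all windows was not computed. The E-box CACGTG, which MYCN binds, contains ACGTG on each strand, where it counts as 2 cores, and was present in 6.3% of all windows. The core nearest a start is shown for each of the 9 members with its surroundings on the gene's strand, 30 bases from 5′ to 3′, with the core or the E-box holding it in capitals.
KDM3A, chr2:86441333-86441362, plus strand: ccgggaggctgtGCGTGtcttgtgagagct
KDM4A, chr1:43650058-43650087, plus strand: ggtggctgcggcGCGTGctcattggctggt
KDM4B, chr19:4969024-4969053, plus strand: atgggcgctcggGCGTGgatccggcagcca
KDM4C, chr9:6757931-6757960, plus strand: gccccagcggtCACGTGacggcgcgcgcgc
KDM2B, chr12:121579762-121579791, minus strand: tatcggggaaagGCGTGgaggggggctgag
KDM5A, chr12:389457-389486, minus strand: caagggcgagctGCGTGgagtcgttggact
KDM5B, chr1:202808468-202808497, minus strand: cggaggcgcacgGCGTGggcttgcggcgag
KDM6A, chrX:44873149-44873178, plus strand: gtcacggcggcgGCGTGgggttcgctgtgt
KDM6B, chr17:7833974-7834003, plus strand: ccttagaagggcGCGTGatccaaatgagta
The KDM3A core lay 26 bases before one of the gene's 2 listed starts. KDM4B had 4 cores, 2 of them in 1 E-box, with the nearest 77 bases before the start and outside any annotated exon. KDM4C and KDM6A had 5 cores each, nearest 30 and 27 bases before their starts. KDM4C had 2 E-boxes and KDM6A 1, each counted as 2 of these cores. The 30 bases shown for KDM3A and KDM4C lie inside, and those for KDM5B and KDM6A partly inside, exons of the same gene in the files' annotation. The KDM5A stretch lies in an exon of CCDC77, a gene on the opposite strand. KDM5C was the member with neither core in its window. A KDM2B window, chr12:121581024-121581273, and a KDM6B window, chr17:7839667-7839916, also held none. These windows lie at the starts of the genes in the files' annotation. The cores shown for KDM2B and KDM6B therefore belong to other listed starts. These are matches of letters, and binding was not measured.

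The level of each member was compared per length, as CPM, the gene's count relative to the TMM-scaled total of its library, divided by the kilobases of its merged exons. KDM5C, an H3K4 demethylase, had the highest level in both control groups, at 19.0 ± 0.614 CPM per kb in H2O and 20.9 ± 0.422 in WT (mean ± SD, n = 2 each). In H2O the next levels were 12.3 for KDM5B, 11.6 for KDM6B, 9.07 for KDM4B and 9.02 for KDM3A. The values of KDM4B and KDM3A overlapped between libraries, so their order was not resolved. KDM4A followed at 7.45, KDM5A at 7.03, KDM2B at 5.74 and KDM4C at 5.63, the last pair overlapping, and KDM6A was lowest at 3.83 CPM per kb. In WT the order was KDM5C, KDM6B at 14.05, KDM5A at 7.37, KDM4A at 6.10, KDM5B at 5.91, KDM2B at 5.36 and KDM4B at 4.39. KDM3A at 4.05 and KDM6A at 3.94 overlapped there, and KDM4C was lowest at 3.29 CPM per kb. Every member was thus transcribed in both controls, across a range of several fold. The order depends on the merged exon length, which was 24899 bases for KDM5B and 8727 for KDM5C. Before division by length, KDM5B was above KDM5C in H2O, at means of 305.4 and 166.2 CPM. In WT it was below, at 147.2 and 182.1 CPM. Which annotated exons these cells use was not examined.

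Reads from shared exon stretches limit some of these levels. KDM4A shares 2086 of its 5184 exon bases with the gene AL451062.4 on the same strand, where a read cannot be assigned to either. Over the 3098 bases that are its own, its level would be 12.5 CPM per kb in H2O and 10.2 in WT. KDM2B shares 439 bases with RNF34 and KDM5A 48 with CCDC77, each on the opposite strand, and counting did not use strand. These stretches are the same in every library.

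In 50 µM CoCl2, 8 of the 10 members rose against H2O and none fell, by the edgeR quasi-likelihood test at a Benjamini-Hochberg adjusted p under 0.05 over all genes. Over all 13636 genes tested, 61.4% were called either way, 30.4% higher and 31.1% lower, so 8 calls in 10 lie near the share of all genes, whose calls split evenly by direction. The median log2 change was 0.11 over the members and 0.00 over all genes. KDM3A rose most, and the H3K27 demethylase KDM6A came next. KDM5A and KDM6B did not pass the test. The members' absolute changes were mostly small, with a median of 0.11 on the log2 scale against 0.17 over all genes.

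**Figure D1:**
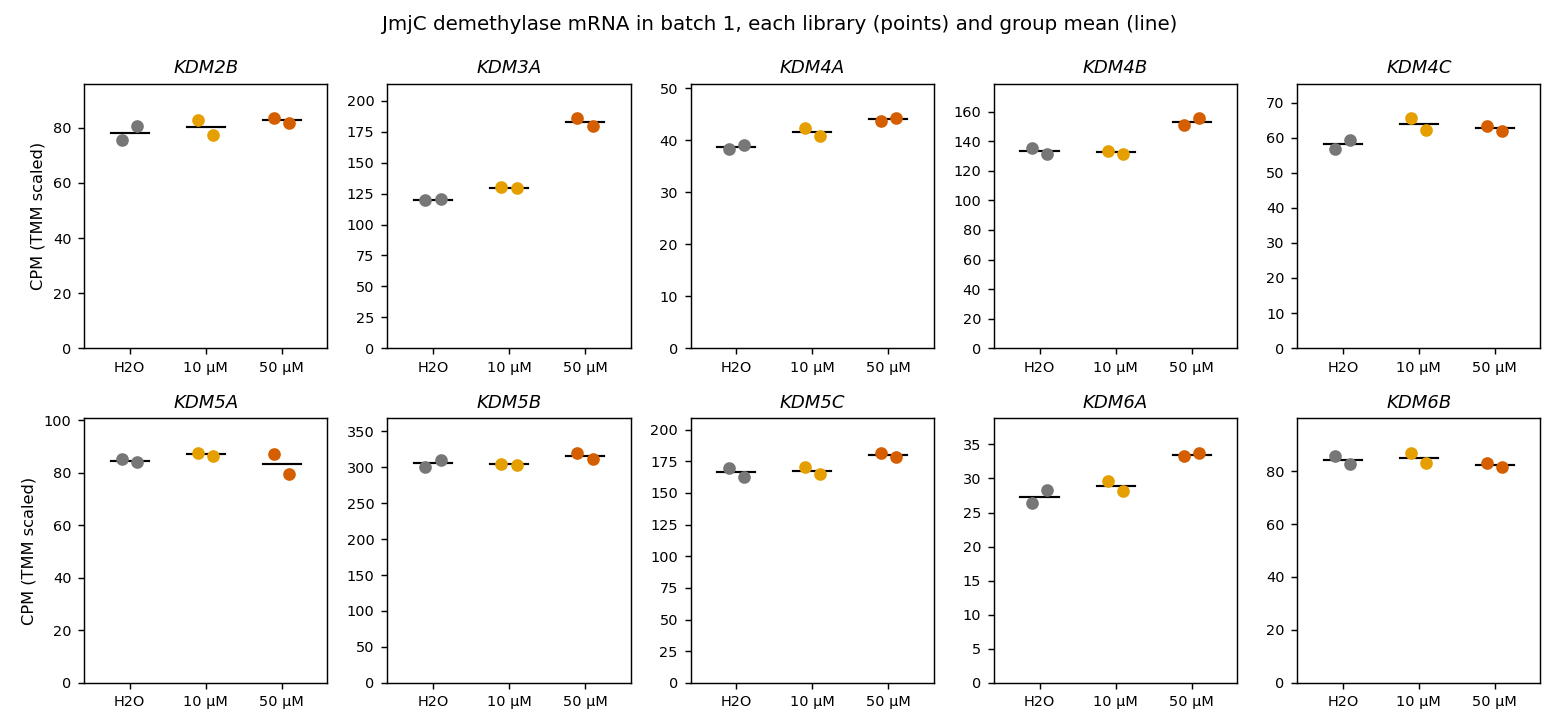
Level of each demethylase in batch 1 in CPM (y axis, from 0) in H2O, 10 µM and 50 µM CoCl2 (x axis). Points are the 2 libraries of a group and lines their mean. KDM3A in 50 µM CoCl2, at 186.1 and 179.6 CPM, stands above all 4 other libraries.

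Among the H3K9 demethylases, KDM3A measured 119.6 and 120.3 CPM in H2O, 130.2 and 129.5 in 10 µM CoCl2 and 186.1 and 179.6 in 50 µM. Its groups did not overlap at any dose, and the step from 10 to 50 µM was the larger. The rise at 50 µM was 1.52-fold, a log2 change of 0.61 (SE 0.0245, adjusted p = 1.34e-55). Across all genes tested, 11.4% had a larger absolute change. At 10 µM the log2 change was 0.11 (SE 0.0255, adjusted p = 0.000211), and from 10 to 50 µM it was 0.49 (SE 0.0244, adjusted p = 1.97e-44). The KDM3A gene lies on chromosome 2 at 86440647 to 86492716 (GRCh38, plus strand).

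The KDM4 genes rose less. KDM4B, an H3K9 and H3K36 demethylase, measured 135.7 and 131.2 CPM in H2O, 133.6 and 131.5 in 10 µM CoCl2 and 151.0 and 155.7 in 50 µM. Only at 50 µM did its libraries stand clear of H2O, with a log2 change of 0.20 (SE 0.0249, adjusted p = 7.53e-13). KDM4A measured 38.2 and 39.0 CPM in H2O, 42.4 and 40.8 in 10 µM and 43.8 and 44.2 in 50 µM. It was higher at both doses, by 0.11 (SE 0.0405, adjusted p = 0.0435) and 0.19 (SE 0.0409, adjusted p = 2.23e-05) on the log2 scale. KDM4C measured 56.8 and 59.4 CPM in H2O, 65.6 and 62.2 in 10 µM and 63.4 and 61.9 in 50 µM. Its log2 change was 0.14 (SE 0.0342, adjusted p = 0.0012) at 10 µM and 0.11 (SE 0.035, adjusted p = 0.00474) at 50 µM. Between the doses KDM4C differed by -0.03, with a 2-SE interval from -0.10 to 0.04, and did not pass the test.

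The H3K27 demethylases parted at 50 µM. KDM6A, an X-linked gene also named UTX, measured 26.4 and 28.3 CPM in H2O, 29.6 and 28.2 in 10 µM CoCl2 and 33.3 and 33.8 in 50 µM. Both 50 µM libraries were above the other 4, and the log2 change against H2O was 0.29 (SE 0.0474, adjusted p = 1.99e-08). Its paralogue KDM6B, also named JMJD3, measured 85.6 and 82.6 CPM in H2O, 86.9 and 83.2 in 10 µM and 82.9 and 81.5 in 50 µM. The H2O and 50 µM ranges overlapped, and the change at 50 µM was -0.03, with an interval from -0.09 to 0.03. The difference between the changes of KDM6A and KDM6B was not tested.

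The H3K4 demethylases moved by small amounts. KDM5C measured 170.0 and 162.4 CPM in H2O, 170.5 and 164.7 in 10 µM CoCl2 and 181.7 and 178.1 in 50 µM. Its log2 change at 50 µM was 0.11 (SE 0.0234, adjusted p = 8.98e-06). KDM5B measured 300.9 and 310.0 CPM in H2O, 305.1 and 302.9 in 10 µM and 319.9 and 311.8 in 50 µM. Its 50 µM change of 0.05 (SE 0.0192, adjusted p = 0.0245) passed the test but is a rise of 1.03-fold. KDM5A, whose enzyme is known to be sensitive to oxygen, measured 85.1 and 84.0 CPM in H2O, 87.5 and 86.4 in 10 µM and 87.2 and 79.6 in 50 µM. Its 50 µM libraries straddled the H2O values, with a change of -0.02 and an interval from -0.08 to 0.04. KDM2B, the PRC1.1 component, measured 75.7 and 80.7 CPM in H2O, 83.0 and 77.4 in 10 µM and 83.6 and 82.0 in 50 µM, a log2 change of 0.08 at 50 µM (SE 0.0316, adjusted p = 0.0204).

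**Figure D2:**
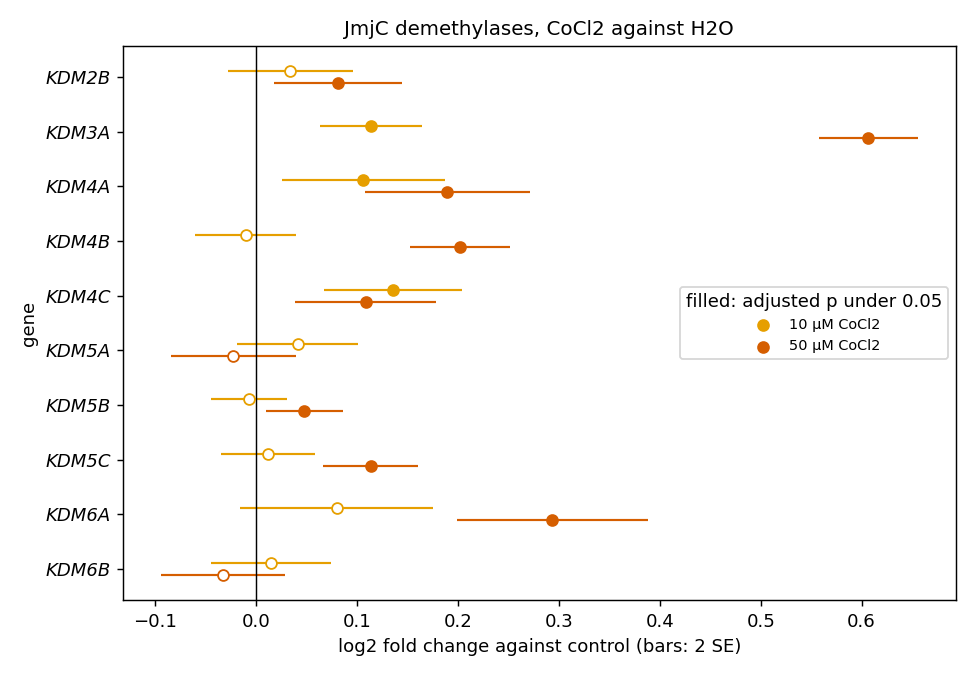
Log2 fold change against H2O (x axis) of each demethylase (y axis) in 10 µM and 50 µM CoCl2, with bars of 2 SE and filled points for adjusted p under 0.05. KDM3A at 50 µM, at 0.61, lies apart from the other members, which lie between -0.03 and 0.29 at that dose.

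At 10 µM CoCl2, 3 members were called, KDM3A, KDM4A and KDM4C, all higher, where 22.7% of all genes were called either way, 11.6% higher and 11.1% lower. The 7 others had log2 changes from -0.01 to 0.08 and adjusted p from 0.241 to 0.841. From 10 to 50 µM, 5 members rose, where 52.8% of all genes were called, 26.2% higher and 26.5% lower. Those were KDM3A, KDM4B (0.21), KDM6A (0.21), KDM5C (0.10) and KDM5B (0.05). Only the log2 change of KDM3A exceeded 0.3 at any dose step. The 2 groups did not overlap for 4 members at 10 µM, 8 at 50 µM and 7 from 10 to 50 µM, where 58.5%, 78.5% and 74.5% of all genes did not. The comparisons at 10 and 50 µM share the H2O libraries.

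The rises of KDM3A, KDM4A, KDM4B, KDM5C and KDM6A at 50 µM kept their calls under every alternative run, and the smaller ones did not. DESeq2 and a fit of all 14 libraries called 5 of 10 members at 50 µM, without KDM2B, KDM4C and KDM5B. Without H2O replicate 1 the same 3 members had log2 changes of 0.03 (KDM2B), 0.08 (KDM4C) and 0.02 (KDM5B) and were not called. Without replicate 1 of 50 µM CoCl2, KDM2B (0.07) and KDM5B (0.03) lost the call and KDM5A, at -0.09 with an adjusted p of 0.033, gained one. At 10 µM, KDM4A was lost with any of the 4 libraries left out, with changes of 0.08 to 0.14, and KDM4C without replicate 1 of H2O (0.10) or of 10 µM CoCl2 (0.10). From 10 to 50 µM, KDM5B was lost without replicate 2 of 10 µM (0.05) or replicate 1 of 50 µM (0.04), KDM2B was gained at 0.10 without replicate 1 of 10 µM, and KDM5A fell by 0.13 without replicate 1 of 50 µM.

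Other genes of the same chemistry were mixed in 50 µM CoCl2. Of the 13 tested genes among 14 other JmjC family members, 5 rose, 3 fell and 5 did not pass, with a median log2 change of -0.05. HR, a JmjC protein that acts as a nuclear receptor corepressor in skin, rose by 0.30, and JARID2, a PRC2 cofactor without demethylase activity, by 0.32. KDM7A fell by 0.28 and RIOX2 by 0.18 on the log2 scale. KDM1A, an H3K4 demethylase that uses FAD in place of iron and 2-oxoglutarate, fell by 0.17, and the other FAD enzyme, KDM1B, did not pass. Of 9 other 2-oxoglutarate oxygenases, 6 rose and 2 fell. EGLN3, a HIF prolyl hydroxylase and a known HIF target, rose by 0.62 (SE 0.0313) and TET3 by 0.19, while FTO fell by 0.23 and HIF1AN by 0.13. Of the 8 tested HIF target genes, 6 rose and 1, PFKFB4, fell by 0.13. CA9, a carbonic anhydrase, rose by 0.86 (SE 0.0331) and PDK1, a mitochondrial kinase, by 0.42, and the median over the 8 was 0.25. At 10 µM the same 8 genes gave 2 higher, CA9 by 0.13 and PDK1 by 0.15, and 4 lower, among them NDRG1 by 0.20 and PFKFB4 by 0.29, with a median of -0.09.

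The methyltransferases that place the same marks were set beside the demethylases. Of 6 H3K4 methyltransferase genes, 2 rose at 50 µM, KMT2A and KMT2C by 0.12 each, and KMT2B fell by 0.08. Of 6 H3K9 methyltransferase genes, 3 rose (SETDB1 by 0.09 and SUV39H1 by 0.18 among them) and SUV39H2 fell by 0.14. Of 4 PRC2 genes, which place H3K27 methylation, EZH1 rose by 0.41 (SE 0.0397) and EZH2 by 0.22, and SUZ12 fell by 0.08. The rise of KDM6A, at 0.29, thus came with rises of both catalytic subunits of PRC2. All 5 H3K36 methyltransferase genes were called, 3 higher (ASH1L by 0.20 and NSD3 by 0.07 among them) and 2 lower. NSD1 fell by 0.38 (SE 0.0244) and NSD2 by 0.04.

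**Figure D3:**
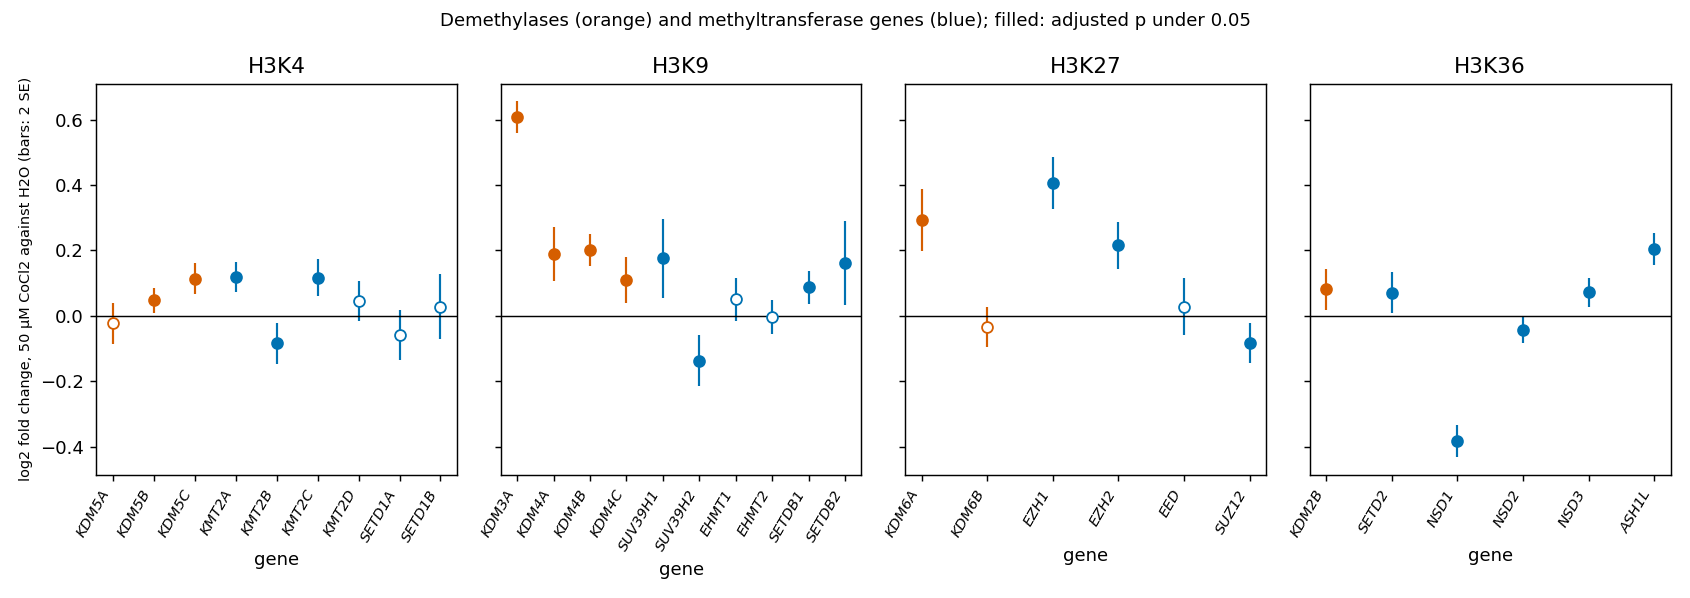
Log2 fold change in 50 µM CoCl2 against H2O (y axis, bars of 2 SE) of demethylases (orange) and methyltransferase genes (blue) by the histone lysine they act on (panels), filled for adjusted p under 0.05. KDM4 enzymes are drawn under H3K9 only. KDM3A at 0.61 and EZH1 at 0.41 are the highest points, and NSD1 at -0.38 is the lowest.

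Partners in complexes were mixed too. Of 7 genes of the PRC1.1 complex that KDM2B joins, PCGF1 rose by 0.34 and 3 fell, among them RNF2 by 0.35 and USP7 by 0.09. Of 7 partners of KDM6A in the COMPASS complexes, 3 rose, among them PAGR1 by 0.55 and ASH2L by 0.15, and 3 fell, among them NCOA6 by 0.19 and PAXIP1 by 0.17. KDM2B itself rose by 0.08 and KDM6A by 0.29.

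The cell type markers were followed because RNA of other cells would alter bulk levels. Fewer cells of a type and less RNA per cell cannot be told apart in these counts. The 7 markers of adrenergic neuroblastoma examined were above 1 CPM in every group. Their summed level was 6735 to 6781 CPM in H2O and 6236 to 6246 in 50 µM CoCl2. MYCN carried that lower sum, with means of 5241 CPM in H2O and 4498 in 50 µM, while 4 of the 7 markers rose, among them PHOX2A, HAND2 and GATA3, and 2 fell (median log2 change 0.09). The 8 mesenchymal markers summed to 1171 to 1177 CPM in H2O and 1544 to 1562 in 50 µM, with COL1A2 at or near 0. VIM, which many cell types express, carried that higher sum, with means of 1137 CPM in H2O and 1521 in 50 µM. Of the 6 tested, VIM and FN1 rose, COL3A1 and LUM fell, and the median log2 change was -0.17. The 5 endothelial markers summed to at most 1.69 CPM in any library of batch 1. Of the 3 immune markers examined, PTPRC and CD3E were at 0 in H2O, and CD68, a lysosomal protein that other cells also make, rose by 1.86 on the log2 scale at 50 µM. The part of these in the members' changes was not tested.

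In batch 2 the targeted gene came first. TET2 measured 64.8 to 70.8 CPM in WT, 76.6 to 80.4 in TET2KO 1, 87.4 to 91.1 in TET2KO 2 and 68.2 to 75.4 in TET2KO 3. No library labelled TET2 knockout lay below both WT libraries. Those of TET2KO 1 and 2 lay above both, and the range of TET2KO 3 overlapped that of WT. Gene-level counts do not show small edits within exons, and directions below are those of the libraries labelled TET2KO. KDM5B was called lower in all 3 knockouts and KDM6B in TET2KO 1 and 3. KDM3A was called higher in TET2KO 2 and lower in TET2KO 3.

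**Figure D4:**
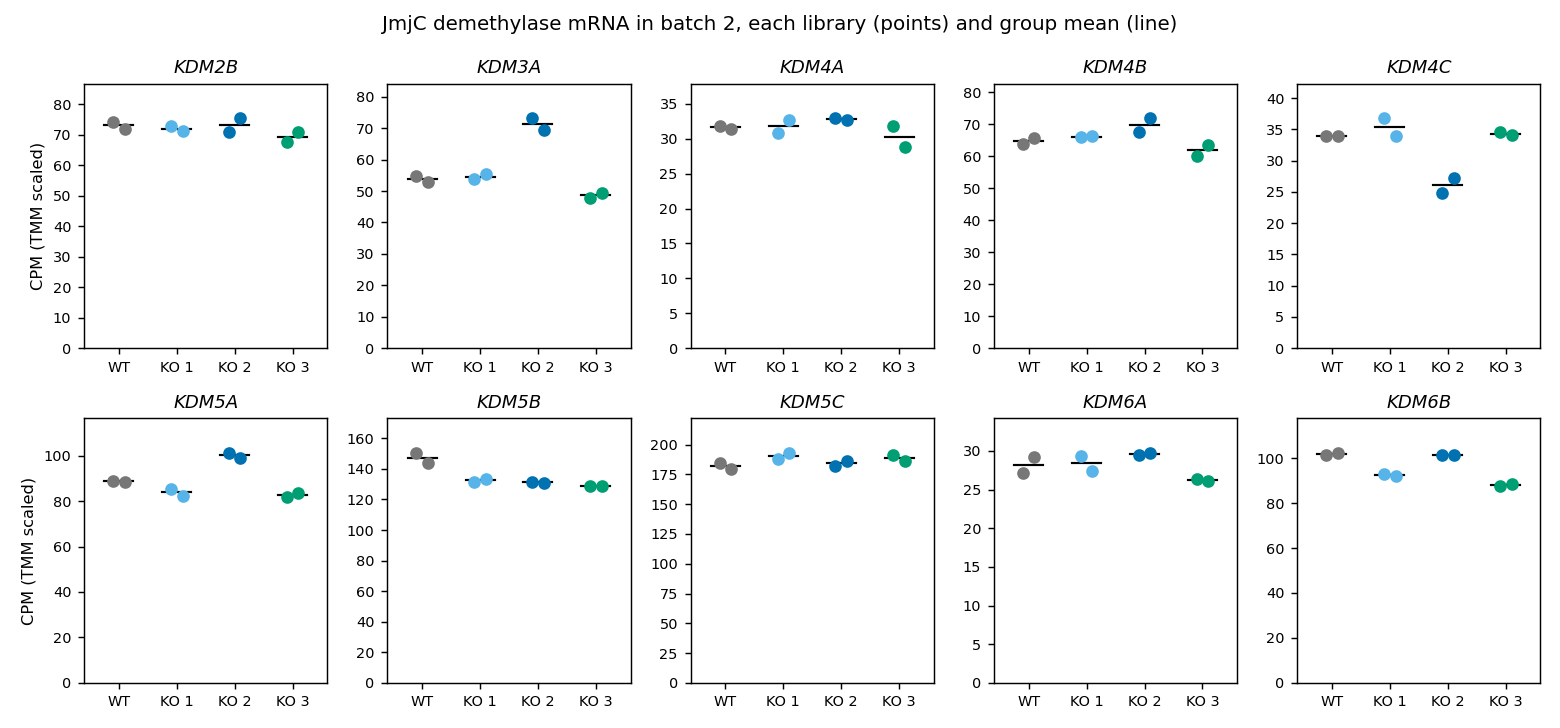
Level of each demethylase in batch 2 in CPM (y axis, from 0) in WT and TET2KO 1, 2 and 3 (x axis, KO 1 to 3). Points are the 2 libraries of a group and lines their mean. For KDM5B all 6 knockout libraries, at 128.9 to 133.7 CPM, lie below both WT libraries.

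KDM5B, an H3K4 demethylase, measured 150.5 and 143.9 CPM in WT, 131.5 and 133.7 in TET2KO 1, 131.5 and 130.7 in TET2KO 2 and 129.1 and 128.9 in TET2KO 3. All 6 knockout libraries lay below both WT libraries and close to each other. Its log2 change was -0.15 (SE 0.0409, adjusted p = 0.00349) in TET2KO 1, -0.17 (SE 0.0409, adjusted p = 0.000603) in TET2KO 2 and -0.19 (SE 0.041, adjusted p = 0.000109) in TET2KO 3. It was 1 of 10 members called lower in all 3 comparisons, which share the WT libraries, where 2.84% of all genes were. Averaged over the knockouts with equal weights, KDM5B fell by 0.17 (SE 0.0332, adjusted p = 1.55e-05). The error of this average comes from libraries of the same label and leaves out the spread between knockouts. The difference of KDM5B among the 3 knockouts did not pass the test (range 0.04, adjusted p = 0.731).

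KDM6B, an H3K27 demethylase, measured 101.5 and 102.4 CPM in WT, 93.1 and 92.0 in TET2KO 1, 101.5 and 101.3 in TET2KO 2 and 87.7 and 88.5 in TET2KO 3. It fell by 0.14 (SE 0.0454, adjusted p = 0.0181) in TET2KO 1 and by 0.21 (SE 0.0456, adjusted p = 0.000114) in TET2KO 3. In TET2KO 2 the change was -0.01, with an interval from -0.10 to 0.08. The difference among the knockouts passed the test, with a range of 0.20 (adjusted p = 0.000331). KDM6A measured 27.1 and 29.2 CPM in WT and from 26.1 to 29.7 in the 6 knockout libraries, and was not called in any knockout.

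Of the 4 H3K9 demethylases, KDM3A and KDM4C were called in TET2KO 2, in opposite directions, and KDM4A and KDM4B were not. KDM3A measured 54.9 and 52.9 CPM in WT, 53.8 and 55.4 in TET2KO 1, 73.2 and 69.4 in TET2KO 2 and 47.9 and 49.5 in TET2KO 3. TET2KO 2 was above every other library of the batch, and TET2KO 3 was below every other. The log2 change was 0.40 (SE 0.0529, adjusted p = 2.80e-11) in TET2KO 2 and -0.15 (SE 0.0563, adjusted p = 0.0491) in TET2KO 3. It was 0.02, with an interval from -0.09 to 0.13, in TET2KO 1. KDM4C went the other way in TET2KO 2. It measured 33.9 and 34.0 CPM in WT, 36.8 and 33.9 in TET2KO 1, 24.9 and 27.2 in TET2KO 2 and 34.5 and 34.2 in TET2KO 3. Its log2 change in TET2KO 2 was -0.38 (SE 0.0698, adjusted p = 1.91e-06), and its changes in TET2KO 1 and 3 were 0.06 and 0.02, which did not pass the test.

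KDM5A, an H3K4 demethylase, also stood apart in TET2KO 2. It measured 89.0 and 88.4 CPM in WT, 85.2 and 82.4 in TET2KO 1, 101.2 and 99.1 in TET2KO 2 and 81.8 and 83.5 in TET2KO 3. The rise in TET2KO 2 was 0.18 on the log2 scale (SE 0.0459, adjusted p = 0.00143). The values of -0.08 and -0.10 in TET2KO 1 and 3 did not pass the test. KDM5C, at 184.7 and 179.5 CPM in WT, ranged from 182.5 to 193.1 CPM in the 6 knockout libraries and was not called. KDM2B, KDM4A and KDM4B were not called against WT in any knockout, with log2 changes from -0.08 to 0.11.

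**Figure D5:**
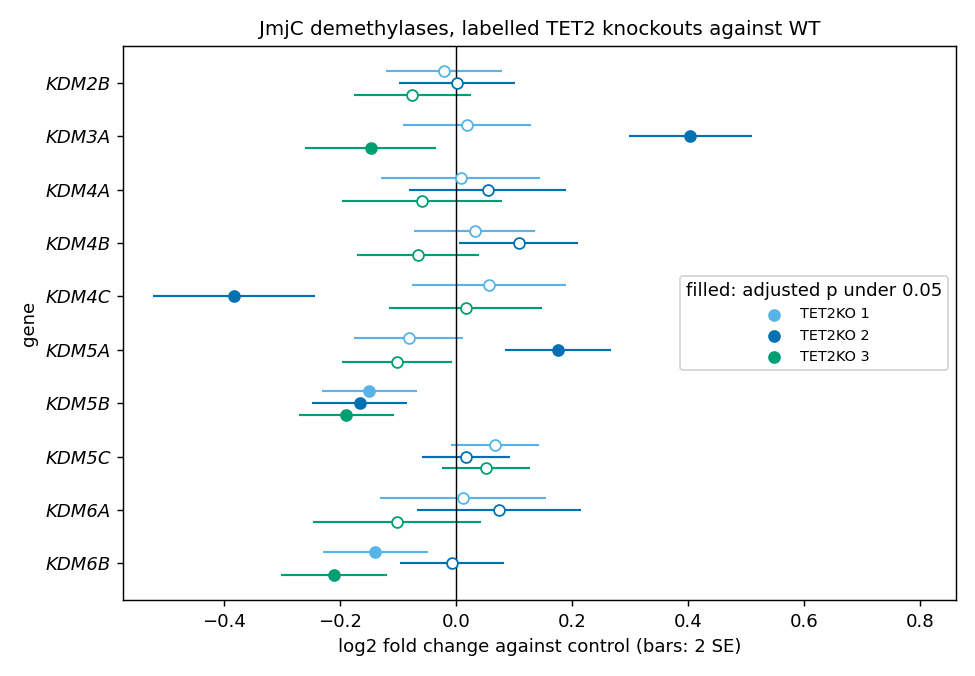
Log2 fold change against WT (x axis) of each demethylase (y axis) in TET2KO 1, 2 and 3, with bars of 2 SE and filled points for adjusted p under 0.05. KDM5B lies between -0.15 and -0.19 in all 3, while KDM3A at 0.40 and KDM4C at -0.38 lie farthest out, both in TET2KO 2.

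Over the members, 2 were called in TET2KO 1, 4 in TET2KO 2 and 3 in TET2KO 3, where 17.5%, 26.3% and 18.9% of all 14061 genes tested were called. Both calls in TET2KO 1 and all 3 in TET2KO 3 were lower, as were 9.72% and 9.96% of all genes, with 7.79% and 8.9% higher. In TET2KO 2, 2 members were higher and 2 lower, against 12% and 14.3% of all genes. The average over the knockouts called 2 members, KDM5B and KDM6B, both lower (18.9% of all genes, 11.4% lower and 7.54% higher). The difference among the knockouts called 5, KDM3A, KDM4B, KDM4C, KDM5A and KDM6B (37.6% of all genes). The median log2 change of the members was 0.01, 0.04 and -0.09 in TET2KO 1, 2 and 3, against 0.00 over all genes in each. The groups did not overlap for 5, 8 and 9 members in TET2KO 1, 2 and 3, where 54.2%, 60.7% and 54.8% of all genes did not, and all 6 knockout libraries lay on 1 side of WT for 2 members, where 17% of all genes did. Calls of 2 to 4 members in 10 lie near the shares of all genes and are no result about the demethylases as a group.

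The call of KDM3A in TET2KO 3 was lost under 13 alternatives, among them each of the 8 single libraries left out (-0.12 to -0.18). KDM6B in TET2KO 1 was lost without either WT library (-0.14 and -0.13) or either TET2KO 1 library (-0.15 and -0.13), KDM6B in the average without either WT library (-0.13 and -0.12), and KDM5B in TET2KO 1 without WT replicate 1 (-0.12) or TET2KO 1 replicate 1 (-0.14). KDM4B among the knockouts was lost without replicate 2 of TET2KO 2 (range 0.13) or replicate 1 of TET2KO 3 (range 0.13). With 1 coefficient for the 6 knockout libraries, KDM5B (-0.17, adjusted p = 0.0531) and KDM6B (-0.12, adjusted p = 0.468) were not called.

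Genes around the members also differed between the labelled knockouts. HR was higher in each, from 39.7 to 40.9 CPM in WT to 55.9 to 62.5 in TET2KO 1, 79.3 to 81.1 in TET2KO 2 and 62.0 to 64.2 in TET2KO 3, with log2 changes of 0.56, 0.99 and 0.65. Of the other 13 JmjC family genes 12 were tested, and few passed: PHF2 rose by 0.17 in TET2KO 2, and KDM7A fell by 0.21 and JARID2 by 0.15 in TET2KO 3. Of 6 H3K4 methyltransferase genes, KMT2A, KMT2C and KMT2D were called lower in TET2KO 1 and in TET2KO 3. KMT2A and KMT2D were lower by 0.45 and 0.35 in TET2KO 1 and by 0.18 each in TET2KO 3. In TET2KO 2, KMT2C and KMT2D were called higher, by 0.20 and 0.31. PCGF1, the PRC1.1 subunit that partners KDM2B, was higher in all 3, by 0.29, 0.26 and 0.17.
Of the PRC2 genes EZH1 fell by 0.19 in TET2KO 1 and EZH2 rose by 0.15 in TET2KO 2. Of the H3K9 methyltransferase genes, EHMT2 rose in TET2KO 1 (0.18) and TET2KO 3 (0.12), SUV39H1 rose in TET2KO 2 (0.24) and SETDB1 fell in TET2KO 3 by 0.13. Of the H3K36 methyltransferase genes, NSD1 and ASH1L each fell by 0.17 in TET2KO 1, and by 0.14 and 0.24 in TET2KO 3. ASH1L rose by 0.11 in TET2KO 2.

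Markers of other cell types moved with the labelled knockouts. The 8 mesenchymal markers summed to 1428 to 1447 CPM in WT and 1023 to 1054 in TET2KO 1. Their sums were 1093 to 1116 CPM in TET2KO 2 and 923 to 939 in TET2KO 3. COL3A1, POSTN and FN1 were lower in all 3. Of the 7 tested, 4, 5 and 4 were called lower in TET2KO 1, 2 and 3, and 1, 0 and 1 were called higher. The 5 endothelial markers summed to 12.5 to 12.7 CPM in WT and to 1.52 to 4.49 in the knockout libraries. All 5 were called lower in TET2KO 1 and 3, and 4 in TET2KO 2. There TEK, at 1.70 to 1.90 CPM against 1.35 to 1.36 in WT, was not called. MYCN, the amplified driver, measured 4600 to 4679 CPM in WT and 2815 to 2837 in TET2KO 2, a log2 change of -0.72. Of the 7 adrenergic markers, MYCN included, 2 were called higher and 2 lower in TET2KO 2, with a median log2 change of -0.04. In TET2KO 1, 3 were called higher and 0 lower, and in TET2KO 3, 3 higher and 1 lower. PTPRC and CD3E, defining immune genes, were at 0 in WT. CD68 was called higher in TET2KO 2 (log2 change 0.42) and lower in TET2KO 3 (-0.53), and was not called in TET2KO 1 (-0.23). The part of these differences in the changes of KDM5B, KDM6B, KDM3A, KDM4C and KDM5A was not tested.

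The genes whose pattern was most like that of each member were found by Pearson's r of log2 CPM, centred within batch, over the 14 libraries and 13363 genes. These libraries hold 7 groups, so a high r mostly reflects shared group means. For KDM3A the closest were SYT1 (r = 0.987) and GPR50 (r = 0.987), and 224 genes had an r above 0.9. For KDM4C they were UBE2E1 (0.977) and SLC6A15 (0.959), for KDM4B NFE2L1 (0.958) and MAN1B1 (0.946), and for KDM6A CPEB3 (0.955) and HTR2B (0.944). For KDM5B they were NFKBIZ (0.953) and QSOX1 (0.948), for KDM5C ZNF335 (0.948) and TBCC (0.941), and for KDM5A ARID4B (0.941) and SMC5 (0.940). For KDM6B they were DICER1 (0.939) and SULF2 (0.937), and for KDM4A WBP2 (0.931) and PARL (0.907). KDM2B, the member with the least movement, had YTHDC2 (0.840) and USP53 (0.827), and no gene above 0.9.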

How the data were processed

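Poly(A) RNA of SK-N-BE2 cells was sequenced from strand-specific libraries, per the labels' protocols. The deposited values are raw counts per gene, made by the authors with featureCounts 1.5.3 (batch 1) and 2.0.5 (batch 2) from the exons of the protein-coding set of GENCODE 33, in paired-end mode and without a strand option, per the file headers. The submitters' processing notes also list Trimmomatic 0.36, STAR 2.6.1d and Subread 1.5.3. A library held 31214128 to 39540111 counts (batch 1) or 52095024 to 59263320 (batch 2). Among counts of 1 to 10, 39.03% to 42.26% were even in batch 1 and 77.31% to 80.51% in batch 2, so a batch 2 count mostly stood for 1 read of a pair. Levels were therefore tested only within a batch.

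In R 4.3.3 with edgeR 4.0.16, each batch was filtered (filterByExpr by group), scaled by TMM and fitted by glmQLFit (legacy = FALSE, robust = TRUE) with 1 coefficient per group. The dispersion was held at or above 0.0001001, which applied in batch 1. P-values came from glmQLFTest and were adjusted over all genes tested, 13636 in batch 1 and 14061 in batch 2. The script was tested on simulated counts. The promoter motifs were read from RefSeq windows of GRCh38.p14. All 10 members are described. From each other list the text names at most 2 called genes per direction and comparison, by smallest adjusted p, plus genes set beside a member that acts on the same mark. TET2 and the cell type markers are named as checks. VEGFA was on the HIF list and was not analysed here, and 2 cell type markers are not reported here. Alternatives were DESeq2 1.42.0, DESeq2 size factors in edgeR, no low-count filter, legacy quasi-likelihood, all 14 libraries in 1 fit, a replicate block, halved counts in batch 2, total counts without TMM (chosen after seeing the data), and each library left out. The members and lists were chosen with earlier results of these data known. Intervals and errors cover counting error and the spread between libraries of the same group. Those of the average over the knockouts leave out the spread between knockouts.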

Additional observations from a re-analysis of the deposited data

Results flagged for a closer look

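For 5 members the effects of the 3 labelled knockouts against the same WT libraries differed by the test of the difference itself (edgeR quasi-likelihood F-test, adjusted p under 0.05). The range of log2 changes was 0.55 for KDM3A (adjusted p = 8.20e-19), which was highest in TET2KO 2 and lowest in TET2KO 3. For KDM4C it was 0.44 (adjusted p = 6.27e-09), with TET2KO 2 lowest. For KDM5A it was 0.28 (adjusted p = 1.77e-08), with TET2KO 2 highest. For KDM6B it was 0.20 (adjusted p = 0.000331), with TET2KO 3 lowest and TET2KO 2 highest. For KDM4B it was 0.17 (adjusted p = 0.0140), with TET2KO 2 highest. Over all genes tested, 37.6% differed among the knockouts by the same test.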

How the results depend on the processing

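Of 80 pairs of a member and a comparison, 60 kept their side of the threshold under every alternative run, and none reversed after being called. Of the 32 called pairs, 19 kept the call throughout, and 7 pairs that were not called gained a call under at least 1 alternative. The number of members called at 10 µM CoCl2 went from 3 to 1 with DESeq2 and to 0 with all 14 libraries in 1 fit. At 50 µM it went from 8 to 5 with either. Over all genes, the count at 10 µM went from 3098 to 1066 with DESeq2 and to 796 with all 14 libraries, and from 10 to 50 µM from 7198 to 4758 and 4674. With 1 coefficient for the 6 knockout libraries, the average called 0 members in place of 2 and 256 genes in place of 2656. That fit takes the differences among the knockouts into its error, and the main average leaves them out. The cause of each change in these counts of calls was not tested.

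With each library left out in turn, the members called ranged from 1 to 3 at 10 µM, 5 to 8 at 50 µM, 4 to 6 from 10 to 50 µM, 0 to 2 in TET2KO 1, 4 to 4 in TET2KO 2, 2 to 2 in TET2KO 3, 1 to 2 in the average and 4 to 5 among the knockouts. Over all genes the counts ranged from 1860 to 3291, 7331 to 8370, 5979 to 7222, 1375 to 2586, 2406 to 3766, 1568 to 2615, 1587 to 2703 and 3754 to 5363 in the same order. A group left with 1 library was assumed to vary like the others. DESeq2 and all 14 libraries in 1 fit also ended the calls of KDM4A and KDM4C at 10 µM and of KDM5B from 10 to 50 µM, and leaving out the low-count filter those of KDM2B and KDM5B at 50 µM, KDM4A at 10 µM and KDM5B from 10 to 50 µM. KDM3A at 10 µM lost its call with all 14 libraries in 1 fit (0.11, adjusted p = 0.0669). Total counts without TMM ended the call of KDM4A at 10 µM (0.09) and added KDM4A from 10 to 50 µM (0.09), KDM4B in TET2KO 2 (0.14) and KDM6A among the knockouts (range 0.23). All 14 libraries in 1 fit added KDM4B in TET2KO 2 (0.11), KDM6A among the knockouts (range 0.17) and KDM3A in the average (0.10). With total counts and no TMM, the median log2 change of all genes lay at most 0.0343 from 0, reached in TET2KO 2, where the main fit gave 0.000698. The difference among the knockouts, a range, was left out of that maximum.

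Same-numbered replicates did not deviate together, with correlations from -0.0008281 to 0.01278 in batch 1 and -0.04114 to 0.07252 in batch 2, so the numbers were not taken as pairs. With the number as a replicate block, the members called were 3, 8, 5, 2, 4, 2, 2 and 5 in the order above, and all genes called were 2968, 8303, 7113, 2228, 3502, 2458, 2458 and 5054. The block ended 1 call, KDM3A in TET2KO 3 (-0.15, adjusted p = 0.0608).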

Other observations

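The controls of the 2 batches differed in some members. KDM3A was 2.22 times as high in H2O as in WT (120.0 against 53.9 CPM), KDM5B 2.08 times, KDM4B 2.06 times and KDM4C 1.71 times, while the other 6 members had ratios from 0.825 to 1.22. CA9, a HIF target, measured 50.5 to 52.3 CPM in H2O and 0.127 to 0.321 in WT. The other HIF targets examined were also higher in H2O. NDRG1 had means of 237 CPM in H2O and 9.30 in WT, and BNIP3 277 and 108. The changes in CoCl2 are measured from these H2O levels. COL3A1, a fibroblast collagen, went the other way, with 2.99 to 3.58 CPM in H2O and 152 to 158 in WT. The batch, the counting version and the culture cannot be told apart here, and no test was made.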
